A study of Homo sapiens with 2 samples.

Results

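The ATP-binding cassette (ABC) genes encode a family of membrane pumps and related proteins, and here their positions were read against Hi-C domain lists of HepG2. This established line was derived from a human liver cancer. The members were the protein-coding genes of the RefSeq table whose symbol is ABC, a letter from A to G and a number. The rule found 45 of 20056 protein-coding genes, and all 45 could be placed in both lists. The PA+OA library came from cells exposed over 48 h to oleic acid at 240 µM plus palmitic acid at 120 µM in medium with 1% fatty acid-free BSA, and the mock library from cells given DMSO at a dilution of 1 to 1000 for an equal 48 h. The labels leave unclear whether the mock medium held BSA too. Each group was 1 library, so every difference below is a difference between 2 lists with no replicate check and no test. The deposited lists hold positions only. The labelled cell line could therefore not be checked against marker genes, and no expression or contact frequency of any ABC gene was measured.

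ABC proteins share a nucleotide-binding domain and most of them use ATP to move a substrate across a membrane. Subfamily A and part of subfamily G carry cholesterol and phospholipids, subfamilies B and C hold bile salt, conjugate and drug pumps together with mitochondrial and channel-regulating proteins, subfamily D serves peroxisomes and lysosomes, and subfamilies E and F have no membrane-spanning part. In the hepatocyte, canalicular members build bile and others load cholesterol onto apolipoproteins, and the oxysterol receptors LXR and the bile acid receptor FXR control several of these genes. A topologically associating domain is a chromosome segment that contacts itself more often than the DNA on either side. Its edges are often read as limits on which promoters and enhancers meet.

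The PA+OA list had 2416 domains of non-zero length and the mock list had 2543, with a median of 640 kb in each, over 23 chromosomes of hg38. The lists also held 108 entries of zero length in PA+OA and 136 in mock, which were used only as edges. All positions fell on a 40 kb grid, and sequencing depth is unknown, so no distance below 40 kb can be resolved. A gene was placed by the midpoint of its record. An edge was called matched where the edge of the gene's PA+OA domain lay within 40 kb of the same edge of its mock domain. Domain coordinates are in hg38 and 1-based, and gene records are those of RefSeq on the same assembly.

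RefSeq promoter windows, from 250 bases before to 50 bases after a start site on GRCh38.p14, were available for 35 of the 45 members. ABCA12, a keratinocyte lipid pump of lamellar granules, is shown first because it was the single member with a record within 40 kb of an edge found in only 1 list. Among all protein-coding genes 7.34% were in that position, against 1 of 45 members (2.22%). Its record spans chr2:214931542-215138626 on the minus strand, with start sites at 215032086 and 215138626, 106.5 kb apart. The mock edge at 215120000 fell between them, 87.91 kb above the lower start site and 18.63 kb below the upper one. The distance of 18.63 kb is less than 1 bin, so the side of the upper start site is uncertain. Between the start sites fell 0 PA+OA edges. The windows at chr2:215032037-215032336 and chr2:215138577-215138876, both minus strand, are printed 5′ to 3′ with every CG in capitals.
ABCA12 lower start: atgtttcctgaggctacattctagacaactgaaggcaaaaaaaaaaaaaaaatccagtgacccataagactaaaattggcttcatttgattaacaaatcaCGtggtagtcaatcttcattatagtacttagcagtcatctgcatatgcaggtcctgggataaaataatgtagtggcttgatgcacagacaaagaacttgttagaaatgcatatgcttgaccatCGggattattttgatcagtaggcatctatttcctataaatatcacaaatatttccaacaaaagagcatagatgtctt
ABCA12 upper start: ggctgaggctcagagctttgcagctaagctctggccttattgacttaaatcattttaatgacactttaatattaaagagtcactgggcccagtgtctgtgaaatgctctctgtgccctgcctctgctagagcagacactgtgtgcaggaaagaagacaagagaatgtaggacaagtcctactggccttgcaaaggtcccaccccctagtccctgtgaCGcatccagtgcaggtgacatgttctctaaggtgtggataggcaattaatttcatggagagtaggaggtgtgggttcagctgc
The lower window had 2 CG dinucleotides and the upper window had 1, against a median of 21 over 22183 windows of protein-coding genes (quartiles 7 and 31) and 19 over the 53 windows of members.

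A pair of neighbours on chromosome 17 and 1 gene of the sterol pump are shown next, chosen after their values were seen because a domain edge present in both lists runs through or beside them. ABCA5, a lysosomal and late endosomal lipid transporter, has its window at chr17:69327084-69327383, and ABCA10, whose substrate is not established, at chr17:69244799-69245098, both minus strand. ABCG8, which pairs with ABCG5 to pump sterols into bile, has its window at chr2:43838721-43839020 on the plus strand. Capitals again mark CG.
ABCA5: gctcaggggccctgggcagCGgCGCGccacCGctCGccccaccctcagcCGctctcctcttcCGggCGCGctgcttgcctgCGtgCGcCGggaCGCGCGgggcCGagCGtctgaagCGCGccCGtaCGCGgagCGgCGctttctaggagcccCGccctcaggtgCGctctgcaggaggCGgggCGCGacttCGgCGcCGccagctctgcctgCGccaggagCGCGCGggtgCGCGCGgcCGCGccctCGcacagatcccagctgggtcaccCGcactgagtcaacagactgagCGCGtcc
ABCA10: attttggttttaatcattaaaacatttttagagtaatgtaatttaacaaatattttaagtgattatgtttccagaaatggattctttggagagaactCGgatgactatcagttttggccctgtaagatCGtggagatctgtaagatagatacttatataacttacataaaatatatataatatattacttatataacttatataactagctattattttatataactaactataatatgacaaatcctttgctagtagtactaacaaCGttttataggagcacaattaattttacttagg
ABCG8: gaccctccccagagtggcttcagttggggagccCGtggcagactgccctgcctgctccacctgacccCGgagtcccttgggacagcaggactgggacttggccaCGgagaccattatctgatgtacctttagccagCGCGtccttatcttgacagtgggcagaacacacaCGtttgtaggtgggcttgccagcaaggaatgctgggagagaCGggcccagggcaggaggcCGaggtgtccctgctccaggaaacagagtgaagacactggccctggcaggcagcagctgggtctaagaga
The ABCA5 window held 45 CG at 76.33% G+C and the ABCA10 window held 3 at 25.0% G+C, although their records overlap (a gap of -0.537 kb). The edge at 69280000 separated their midpoints in the PA+OA list and in the mock list. The ABCG8 window held 8 CG. The start sites of ABCG5 and ABCG8 are 132 bases apart and their windows share 231 bases, with ABCG5 on the minus strand and ABCG8 on the plus strand. The letters AGGTCA, the half-site of several nuclear receptors, were searched on both strands. They occurred in 3 of 53 member windows (5.66%; ABCD4, ABCF1 and ABCG2), in none of the 5 printed windows, and in 11.9% of all protein-coding windows.

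Both edges of the domain were matched for 20 of 45 members (44.4%, Wilson 95% interval 30.9% to 58.8%), against 40.9% of the 19602 protein-coding genes placed in both lists. Another 20 members had 1 edge matched and 5 had none (11.1%), against 17.1% of all genes with none. For 19 members (42.2%) the coordinates were identical, against 34.0% of all genes. The PA+OA domain was longer by over 40 kb for 15 members (33.3%, all genes 33.0%) and shorter for 10 (22.2%, all genes 25.7%). These shares lie near those of all genes. The intervals cover counting error only, and they are too narrow where genes share a domain. Counting each of the 36 domain pairs once, 14 were matched at both edges (38.9%, against 41.1% of all pairs that hold a gene).

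**Figure D1:**
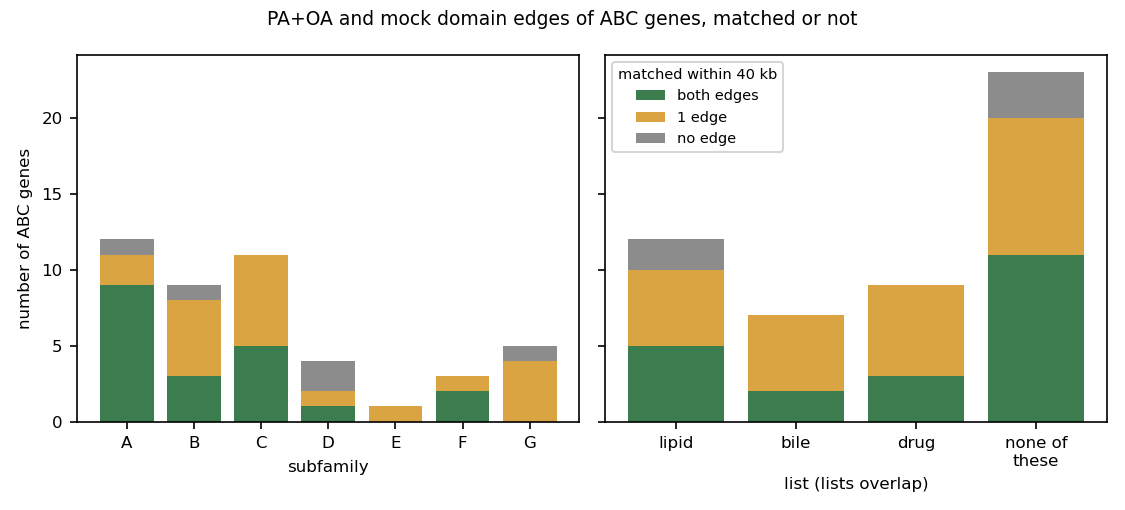
Number of ABC genes (vertical axis) with both edges, 1 edge or no edge of the domain matched within 40 kb between PA+OA and mock, by subfamily on the left and by role list on the right, where a gene can stand in several lists. Subfamily A has 9 of 12 genes with both edges matched and subfamily G has 0 of 5.

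Of the 90 edges around members, 60 were matched (66.7%), 59 of them at the identical position (65.6%). Over all protein-coding genes 61.9% of edges were matched and 55.8% were at the identical position. The only match that was not identical was the lower edge around ABCB11, 40 kb lower in PA+OA. The 30 unmatched edges differed by at least 120 kb, with a median of 720 kb against 920.0 kb over all genes, and the upper edge of ABCA3 and the lower edge of ABCD2 were among those that differed by 120 kb. For 13 unmatched edges the PA+OA edge was also present in the mock list while the mock edge was missing from the PA+OA list (43.3%, against 39.9% of the unmatched edges of all genes). For 9 the mock edge was also present in the PA+OA list while the PA+OA edge was missing from the mock list (all genes 30.1%), and for 8 each edge was found in its own list only (26.7%, all genes 29.2%). Of the 15 longer PA+OA domains, 9 had both outer edges in the mock list too (all genes 59.5%). Of the 10 shorter ones, 7 lay in a mock domain with both outer edges in the PA+OA list (70.0%, all genes 61.9%). These splits lie near those of all genes.

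The domain that held a member had a median size of 1480 kb in PA+OA (95% interval of the median 960 to 1920 kb) and 1360 kb in mock (1000 to 1920 kb). The medians over all protein-coding genes were 1560 kb in PA+OA and 1480 kb in mock. Domains over 3 Mb held 10 of 45 members in PA+OA and 8 in mock (17.8%). Over all genes they held 5885 of 19602 in PA+OA and 4623 in mock (23.6%), a larger share in each list. Taken gene by gene, the median of PA+OA size minus mock size was 0 kb over members and 0 kb over all genes. Counting each domain once, the member medians were 1280 kb in PA+OA and 1340 kb in mock. The intervals describe the spread over genes only, and they are too narrow where genes share a domain. The median distance from a member's midpoint to the nearest edge was 209.9 kb in PA+OA and 169.7 kb in mock, against 314.0 and 297.9 kb over all genes. The share with a midpoint within 40 kb of an edge lay near that of all genes, 5 of 45 (11.1%) in each list, against 10.8% in PA+OA and 10.9% in mock over all genes.

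**Figure D2:**
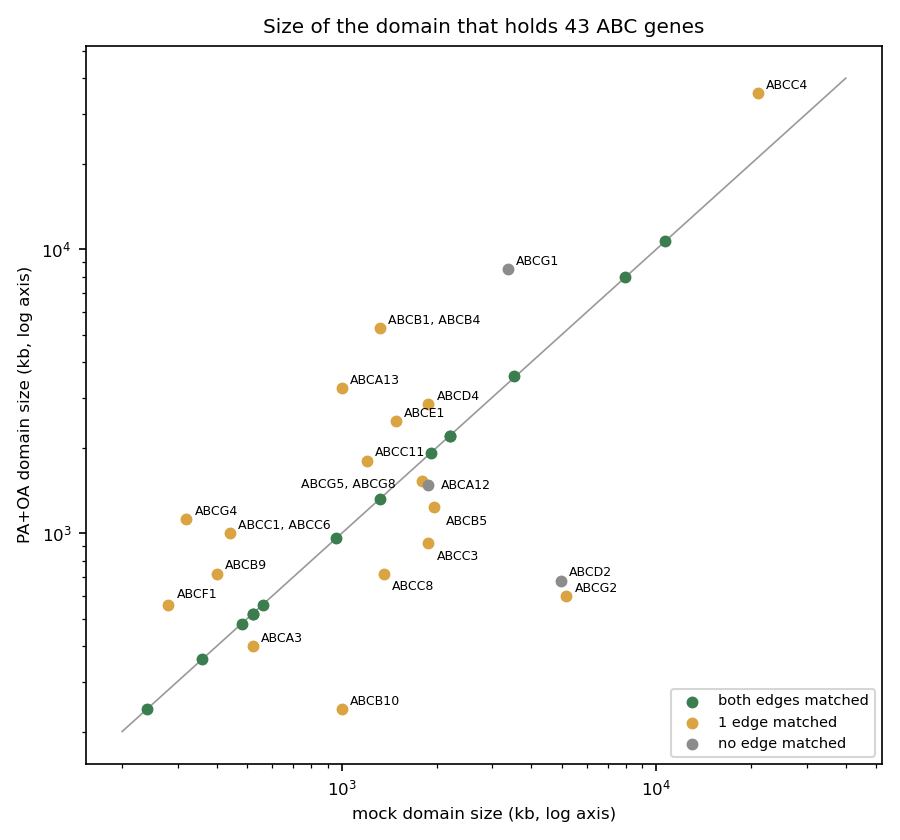
Size of the domain that holds 43 of the ABC genes in PA+OA (vertical, kb, log axis) against mock (horizontal, kb, log axis), 1 point per gene or per neighbours at the same place, coloured by the number of edges matched. Points above the diagonal line of equal size are longer in PA+OA, with ABCB1 and ABCB4 farthest above it (5280 kb in PA+OA, 1320 kb in mock) and ABCG2 farthest below (600 kb in PA+OA, 5160 kb in mock).

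The subfamilies differed in their counts. In subfamily A, 9 of 12 genes had both edges matched (75.0%, Wilson interval 46.8% to 91.1%), but ABCA6, ABCA8, ABCA9 and ABCA10 share 1 domain, and over domain pairs the count was 6 of 9. In subfamily G none of 5 genes did (0%, Wilson interval 0% to 43.5%), in 4 domain pairs. Over all genes the share was 40.9%, and over all domain pairs 41.1%. The G interval holds 40.9%. The A interval lies above it but is too narrow, because genes share a domain. Subfamily B had 3 of 9, subfamily C 5 of 11, subfamily D 1 of 4, subfamily F 2 of 3, and the single gene of subfamily E had 1 edge matched. Genes are not replicates of the treatment, so the difference between subfamilies was not tested. Placing genes by the upper end of the record put ABCG8 across the edge at 43880000 and gave subfamily G a count of 1, and ABCD3 likewise, leaving subfamily D a count of 0. Median domain sizes were equal in both lists for subfamily A (1920 kb), B (1320 kb), C (960 kb) and F (960 kb). Equal medians do not mean unchanged domains. The PA+OA domain was longer for 1 gene of A, 4 of B, 4 of C and 1 of F. It was shorter for 2 of A, 2 of B, 2 of C and 0 of F. The A median is the size of the domain shared by ABCA6, ABCA8, ABCA9 and ABCA10. Median sizes were 2520 kb in PA+OA and 2040 kb in mock for D, and 1520 kb in PA+OA and 1800 kb in mock for G.

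The 12 lipid exporters had 5 genes with both edges matched (41.7%, Wilson interval 19.3% to 68.1%), 3 with a longer and 4 with a shorter PA+OA domain, against 40.9%, 33.0% and 25.7% of all genes. Over domain pairs the count matched at both edges was 5 of 11 (45.5%, against 41.1% of all pairs). The cholesterol pump ABCA1, which loads apolipoprotein A-I to start high-density lipoprotein, lay in chr9:99240001-109880000 in both lists, a domain of 10640 kb with 48 protein-coding genes. ABCA2, a lysosomal lipid transporter best known in brain, lay in a 7960 kb domain with 157 genes in both lists, among them RXRA, the partner receptor of LXR. ABCA7, a phospholipid pump of macrophages and brain, lay in a 480 kb domain with 22 genes, and ABCA4, the retinal flippase, in a 2200 kb domain shared with ABCD3. These 4 genes had identical domain coordinates in the 2 lists. ABCA3, which loads lung surfactant, lay in 400 kb in PA+OA and 520 kb in mock, and its PA+OA domain held 17 genes, against 18 with PDPK1 in mock. ABCA12 had no edge matched, with chr2:213800001-215280000 in PA+OA and chr2:213240001-215120000 in mock. Both edges were higher in PA+OA, by 560 and 160 kb, yet the domain held the same 4 protein-coding genes.

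None of the subfamily G sterol exporters had both edges matched. ABCG1, which passes cholesterol to high-density lipoprotein, lay in chr21:34400001-42880000 in PA+OA (8480 kb, 55 genes) and in chr21:39200001-42560000 in mock (3360 kb, 28 genes), with no edge matched. The nearest of the 27 genes that joined it in PA+OA was PDE9A, 466.1 kb away. Its homologue ABCG4, a sterol exporter mainly of brain, lay in 1120 kb with 20 genes in PA+OA and in 320 kb with 16 genes in mock, the upper edge being 800 kb higher in PA+OA. ABCG5 and ABCG8, the obligate partners that excrete sterols into bile, lay together in chr2:42360001-43880000 in PA+OA and in chr2:42080001-43880000 in mock. Their lower edge was 280 kb higher in PA+OA and left out COX7A2L and 1 other of the 14 genes found in the mock domain, at 1470 kb from ABCG5. The pair shared a domain in both lists, beside an upper edge at the same position. The ABCG8 midpoint lay 19.021 kb from that edge, less than 1 bin, so its side is uncertain.

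**Figure D3:**
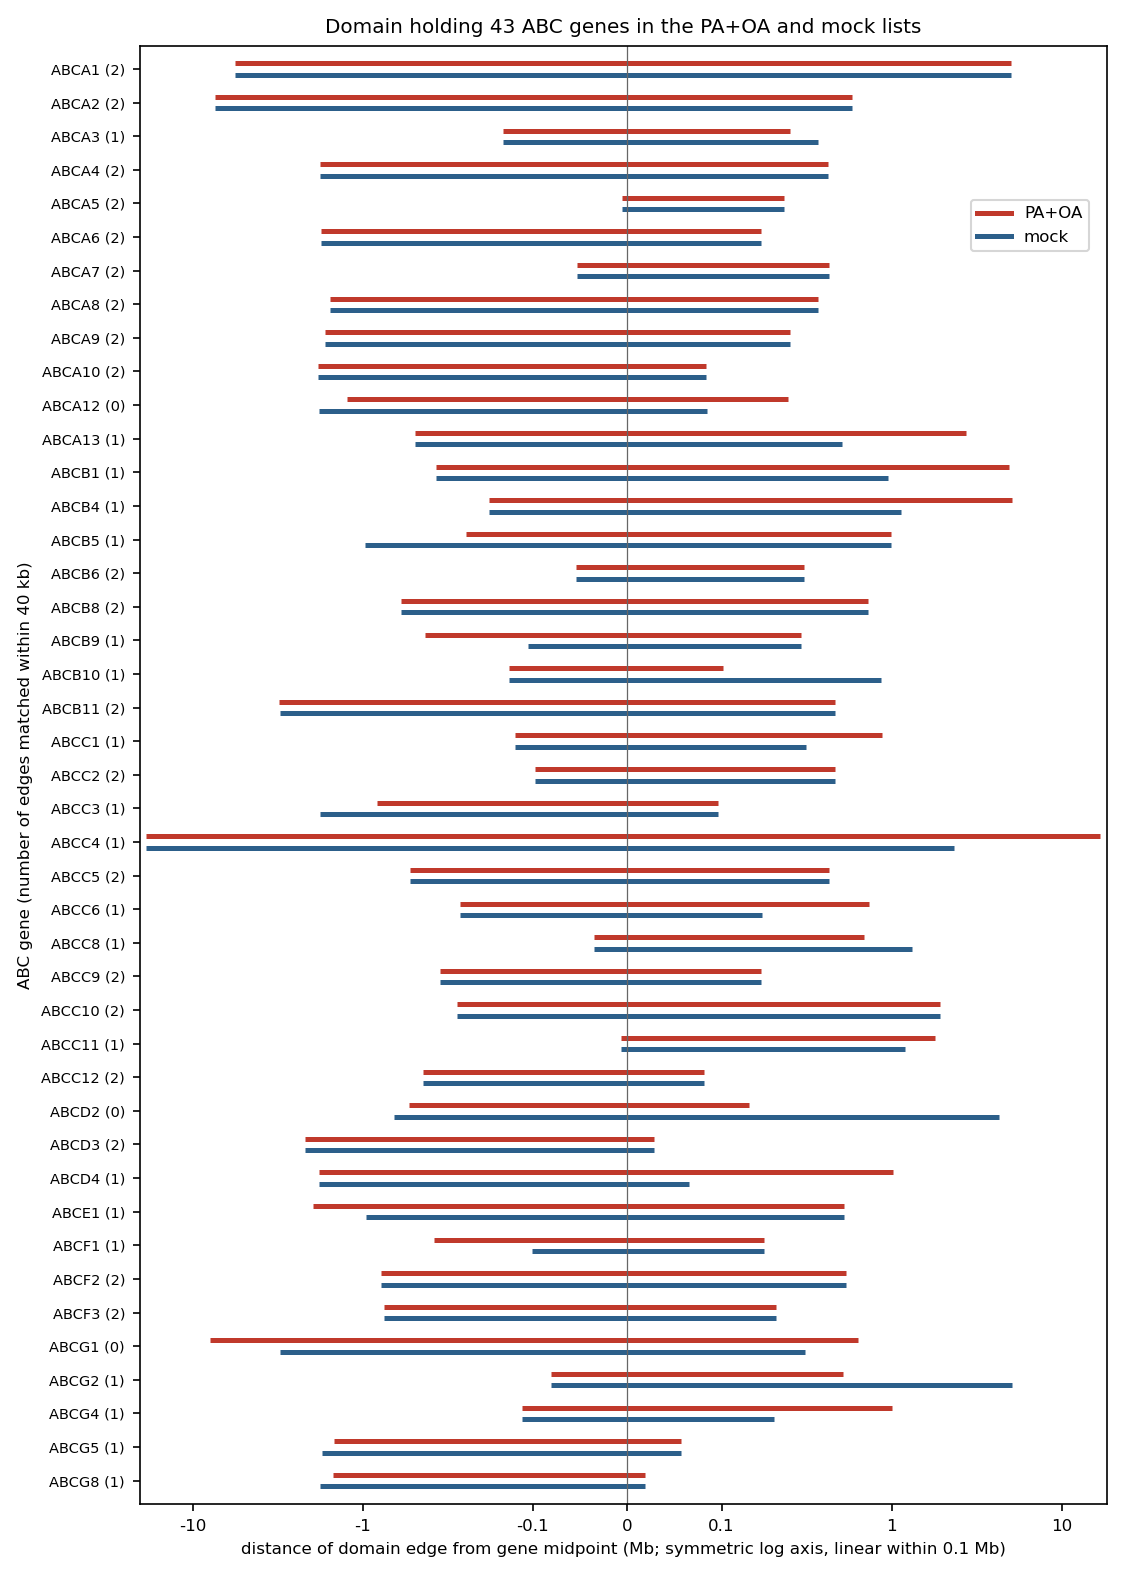
Extent of the PA+OA domain (upper bar of each pair) and the mock domain (lower bar) around 43 of the ABC genes, as distance of the edge from the gene midpoint in Mb on a symmetric log axis that is linear within 0.1 Mb. The number of edges matched within 40 kb stands in brackets after each name. The bars of ABCA1 and ABCC2 are the same in both lists, while those of ABCB1, ABCB4 and ABCG1 are longer in PA+OA and those of ABCG2 and ABCC3 are longer in mock.

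The 7 bile transporters had 2 genes with both edges matched (28.6%, Wilson interval 8.2% to 64.1%), 2 with a longer and 3 with a shorter PA+OA domain. Over all genes these shares were 40.9%, 33.0% and 25.7%. ABCG5 and ABCG8, both with a shorter PA+OA domain, share 1 domain pair. Over domain pairs the count matched at both edges was 2 of 6 (33.3%, against 41.1% of all pairs). ABCB11, the bile salt export pump, lay in chr2:165880001-169440000 in PA+OA and chr2:165920001-169440000 in mock, a difference of 1 bin that took in TTC21B at 3060 kb. ABCC2, the canalicular pump of bilirubin and other conjugates, lay in chr10:99720001-100280000 in both lists, with 8 genes. ABCC3, which exports conjugates across the basolateral membrane, lay in 920 kb with 24 genes in PA+OA and in 1880 kb with 41 genes in mock, with the lower edge 960 kb higher in PA+OA. The nearest of the 17 genes outside the PA+OA domain was KAT7, 851.7 kb away. ABCC4, a basolateral exporter of bile acids and nucleotides, lay in chr13:76480001-111880000 in PA+OA (35400 kb, 85 genes) and in chr13:76480001-97480000 in mock (21000 kb, 35 genes). At 35400 kb it was the longest PA+OA domain that holds a protein-coding gene. Chromosomes 9, 13, 14, 15, 19, 21 and 22 were known from earlier results to hold long domains in at least 1 list. Without these chromosomes, 17 of 39 members had both edges matched (43.6%, against 44.8% of all genes).

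ABCB4 and ABCB1 are adjacent on chromosome 7, with 26.99 kb between their records. ABCB4 moves phosphatidylcholine into bile and ABCB1, or P-glycoprotein, pumps drugs. Both lay in chr7:87240001-92520000 in PA+OA and in chr7:87240001-88560000 in mock. The PA+OA domain of 5280 kb was 4 times the mock domain of 1320 kb and held 30 protein-coding genes, against 9 in mock. The upper edge at 92520000 was also an edge in the mock list, and 2 mock edges lay within the PA+OA domain. The first gene gained was TEX47, 1187 kb from ABCB1, and no gene of the mock domain lay outside the PA+OA domain.

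The 9 drug exporters had 3 genes with both edges matched (33.3%, Wilson interval 12.1% to 64.6%), 4 with a longer and 2 with a shorter PA+OA domain. Among all genes 40.9% were matched at both edges, 33.0% had a longer and 25.7% a shorter PA+OA domain. ABCG2, the breast cancer resistance protein that also exports urate, had the largest ratio in the direction of shorter PA+OA domains. It lay in chr4:88080001-88680000 in PA+OA (600 kb, 8 genes) and in chr4:88080001-93240000 in mock (5160 kb, 17 genes). The lower edge was identical, and 3 PA+OA edges fell within the mock domain. The nearest gene lost in PA+OA was NAP1L5, 535.9 kb away. ABCC1 and the elastic-tissue disease gene ABCC6 are 6.512 kb apart on chromosome 16 and lay together in 1000 kb in PA+OA and 440 kb in mock. The upper edge was 560 kb higher in PA+OA, and the domain there held 5 genes, with NPIPA7 added, against 4 in mock. ABCC5, a nucleotide analogue pump, lay with ABCF3 in a 960 kb domain in both lists, and ABCC10, a broad drug pump, in a 2200 kb domain. ABCC11, the earwax and apocrine transporter, lay in 1800 kb in PA+OA and 1200 kb in mock, its upper edge being 600 kb higher in PA+OA and taking in ZNF423. Its midpoint lay only 6.179 kb above the lower edge, less than 1 bin, so this placement is uncertain.

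The 23 members in none of these lists had 11 with both edges matched (47.8%, Wilson interval 29.2% to 67.0%), and the 22 members in at least 1 list had 9 (40.9%, 23.3% to 61.3%). The intervals overlap widely and also hold the 40.9% of all genes. Counting each domain pair once reversed the order, with 7 of 19 (36.8%) for members in none of the lists and 9 of 20 (45.0%) for listed members. The intervals of the lipid, bile and drug lists overlap each other as well, and no difference between the lists was tested. Some genes stand in more than 1 of these lists, so the lists are not separate groups. Without long domains, in the members whose domain was at most 3 Mb in both lists, 17 of 33 were matched at both edges (51.5%), against 53.1% of all such genes.

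ABCD2, a peroxisomal importer of very long chain fatty acids, lay in a shorter PA+OA domain, with 680 kb and 2 genes in PA+OA and 4960 kb and 17 genes in mock. ABCD3, a peroxisomal importer of branched and long fatty acids, had the identical 2200 kb domain in both lists. ABCD4, which takes part in lysosomal cobalamin export, lay in 2840 kb with 45 genes in PA+OA and in 1880 kb with 27 genes in mock.

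Among the mitochondrial members, ABCB6, a porphyrin transporter, and ABCB8, which is tied to mitochondrial iron and potassium handling, had identical domains of 360 and 1320 kb. ABCB10, needed for haem synthesis, lay in 240 kb with 4 genes in PA+OA and 1000 kb with 8 genes in mock. ABCB5, a marker of limbal and melanoma cells, lay in 1240 kb in PA+OA and 1960 kb in mock, and ABCA13, the longest member record at 476.0 kb, in 3240 kb in PA+OA and 1000 kb in mock. ABCE1, which recycles ribosomes, lay in 2480 kb with 13 genes in PA+OA and 1480 kb with 6 genes in mock. The translation factor relatives ABCF2 and ABCF3 had identical domains.

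A few further members are named beyond the rule for naming, after their values were seen. The lysosomal peptide transporter ABCB9 lay in 720 kb in PA+OA and 400 kb in mock, and ABCF1, a translation initiation regulator, in 560 kb in PA+OA and 280 kb in mock. ABCC8, the sulphonylurea receptor, forms the potassium channel of the beta cell with KCNJ11, and ABCC9 forms the vascular one with KCNJ8. ABCC9 and KCNJ8 shared 1 domain of 520 kb with identical coordinates in both lists. ABCC8 and KCNJ11 were in different domains in both lists, since the edge at 17400000 lies inside the ABCC8 record, 7.502 kb from its lower end. The ABCC8 domain measured 720 kb in PA+OA and 1360 kb in mock, and the KCNJ11 domain 320 kb in PA+OA and 80 kb in mock. The midpoint of KCNJ11 lies 12.7 kb from that edge and that of ABCC8 34.671 kb. Both distances are less than 1 bin, so the side of each gene is uncertain.

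An edge fell inside the record of 5 members in PA+OA (11.1%) and 6 in mock (13.3%), against 5.71% and 5.97% of all genes. Member records are long, with a median of 82.7 kb against 24.4 kb over all genes. In the middle range of member record lengths, 4 of 23 members (17.4%) held an edge in each list, against 7.54% of all genes of those lengths in PA+OA and 7.91% in mock. The 5 genes with an edge inside in both lists were ABCA5, ABCC8, ABCC11, ABCD3 and ABCG8, each at the identical position. The sixth in mock was ABCA12, whose edge at 215120000 had its nearest PA+OA edge at 215280000, 160 kb away. The ABCG8 edge lay 2.988 kb before the end of the record, far below the 40 kb grid, and no member had an edge 40 kb or more from both ends of its record. The start site lay in another domain than the midpoint for 0 of 35 members in PA+OA and 1 of 35 (2.86%, ABCA12) in mock. Over all genes with a start site the shares were 2.66% in PA+OA and 2.68% in mock. The ABCA12 start site lay 18.63 kb above the mock edge, less than 1 bin, so its side is uncertain.

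Of 11 pairs of neighbouring ABC genes with midpoints within 1 Mb, 9 shared a domain in PA+OA and 9 in mock (81.8% in each), and they were the same 9 pairs. The midpoints of these pairs were 38.26 to 394.9 kb apart. Among all pairs of protein-coding genes at such distances 78.5% shared a domain in PA+OA and 78.6% in mock, a share close to that of the ABC pairs. The median distance was 115.4 kb for the member pairs and 204.2 kb for all pairs. The chromosome 17 cluster of ABCA8, ABCA9, ABCA6 and ABCA10 filled part of chr17:67360001-69280000 in both lists, and ABCA5, the next gene, lay in chr17:69280001-69520000 with 1 other gene. On chromosome 16, ABCC12, a gene of unsettled function, was the only protein-coding gene of chr16:47680001-48200000 in both lists, and ABCC11, 8.826 kb away, lay across the edge at 48200000. Both separated pairs have an edge inside one gene of the pair, 35.69 kb from the lower end of ABCA5 and 35.18 kb from that of ABCC11. The midpoints of ABCA5 and ABCC11 lay 5.722 and 6.179 kb from these edges, less than 1 bin, so their own side is uncertain. Those of ABCA10 and ABCC12 lay 83.6 and 81.6 kb away. Among the pairs that shared a domain, the midpoints of ABCG8 and ABCD3 lay 19.021 and 28.103 kb from an edge. These distances are also less than 1 bin, so the side of ABCG8 and of ABCD3 is uncertain too. Placing genes by the lower end of the record put ABCC11 below its edge. Subfamily C then had 6 genes with both edges matched and the drug list 4.

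**Figure D4:**
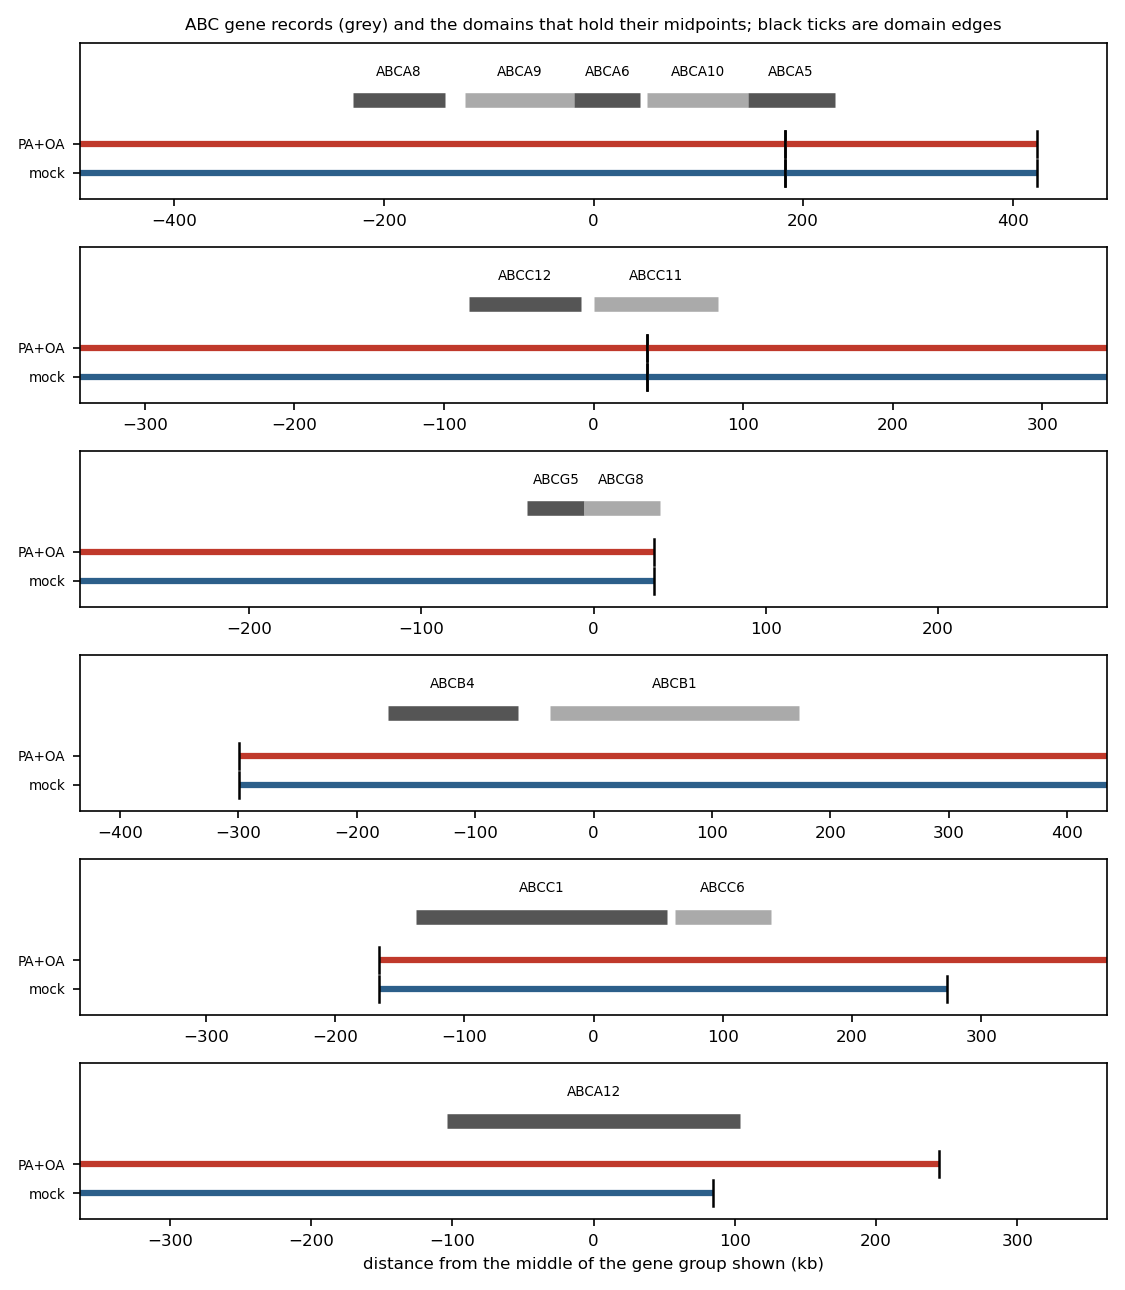
Neighbouring ABC genes and the domains that hold their midpoints, with gene records in grey, PA+OA domains above mock domains, and black ticks at domain edges, against distance in kb from the middle of each group of genes. The edges within ABCA5, ABCC11 and ABCG8 stand at the same place in both lists, while the mock domain of ABCA12 ends within its record and the PA+OA domain ends beyond it.

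Domain edges decide which genes are counted as neighbours of a member. In 20 members (44.4%) the protein-coding genes of the domain were the same in both lists, against 40.6% of all genes. For 16 (35.6%, all genes 35.7%) the PA+OA domain held genes that were outside the mock domain, and for 10 (22.2%, all genes 30.3%) it lacked genes that were inside the mock domain. ABC proteins whose symbols fall outside the name rule were placed the same way. The chloride channel CFTR had the identical 320 kb domain in both lists, and the antigen peptide pumps TAP1 and TAP2 lay in 680 kb in PA+OA and 1760 kb in mock. Among nuclear receptors that control ABC genes, 7 of 8 could be placed in both lists, PPARA being the one not placed. NR1H3 and NR1H2, the 2 LXR genes, RXRA and NR0B2 had both edges matched (4 of 7, 57.1%, Wilson interval 25.1% to 84.2%, all genes 40.9%). The bile acid receptor NR1H4 lay in 2720 kb in PA+OA and 2600 kb in mock, the xenobiotic receptor NR1I2 in 3040 kb in PA+OA and 7400 kb in mock, and its relative NR1I3 in 1040 kb in PA+OA and 2320 kb in mock. Among 13 partner genes, such as the apolipoproteins that accept lipid and the uptake carriers of bile acids, 5 had both edges matched (38.5%, all genes 40.9%). APOA1, the acceptor of ABCA1, had an identical 1400 kb domain, while APOE lay in 6280 kb in PA+OA and 1320 kb in mock.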

How the data were processed

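The authors deposited, per the file headers, 1 domain list for each of 2 Hi-C libraries, PA+OA and mock, with chromosome, start and end as positions in base pairs and no score. The build was hg38 and the tools named are HiC-Pro and FastQC, per the submitters' processing notes. The sources used here do not give versions, the domain caller, matrix normalization or depth, and a list can depend on each of them. Starts were read as 0-based, with 1 added for printing.

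Protein-coding genes of the RefSeq table were placed by midpoint with Python 3.11.15, pandas 2.3.3, numpy 2.4.6 and scipy 1.17.1. Edges within 40 kb, 1 bin, were matched, and the classification was tested on simulated lists. Groups came from the titles. No p-value was computed, since each group has 1 library. The members, lists and alternatives were chosen with earlier results of these data known. Domains were given for all lipid, bile and drug exporters and then for members with the largest edge shifts, up to 30 genes, and neighbours within 1 Mb (ABCC6 beside ABCC1) were described together. Some results are not reported here. Other members named are marked as such or have identical domains. The alternatives varied the tolerance, the placement, the way domains are compared and the chromosomes and genes included. Placement by start site, and the shares over all genes for edges, long domains, neighbours and pairs, were added after seeing the data.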

Additional observations from a re-analysis of the deposited data

How the results depend on the processing

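The counts of members with both edges matched ranged from 14 of 36, counting each domain pair once, to 21. They stayed within 1.5 times the main count of 20 under every alternative run. These included tolerances of 0, 80 and 120 kb, placement by either end of the record, and reciprocal overlap of 90%. Another matched each PA+OA edge with any mock edge within 40 kb, but only where no mock edge lay further inside the PA+OA domain. With that condition it stayed close to the main rule. Others were autosomes only, long chromosomes or domains over 3 Mb left out, and the ABC proteins outside the name rule added. Placement by start site, added after seeing the data, gave 18 of 35 members, and placement by midpoint gave 18 for the same genes. Of 51 alternatives of the main counts and medians, 46 stayed within those limits. The exceptions were these. At a tolerance of 0 kb the bile list had 1 gene matched in place of 2, because the ABCB11 edges differ by 1 bin. With genes placed by the upper end of the record the bile list had 3, which is exactly at the limit of 1.5 times and was not counted as an exception. Counted from the nearest end of the record in place of the midpoint, 8 members lay within 40 kb of a PA+OA edge and 9 within 40 kb of a mock edge, in place of 5 in each list. With an edge required to lie 40 kb from both ends of the record, 0 members held one in PA+OA and 0 in mock, which no record under 80 kb could meet. No paired analysis was possible because each group has 1 library. Depth is unknown, so the precision of single edges could not be given.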
